A study of Homo sapiens with 18 samples.

Results

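A set of genes that the study singles out in connection with a mutant form of the histone methyltransferase EHMT1 were followed through the ChIP-seq (chromatin immunoprecipitation and sequencing) peak lists. They are PPP1R14C, HTR5A, STXBP3, LIPT2 and FRMPD2, that is 5 of the 20163 protein-coding genes annotated on chromosomes 1 to 22, X and Y. They were taken because the study names them, and every peak that lay in one of these genes or within 50 kb of it was then collected from all 9 lists. This gave 11 of the 22458 peaks, which fell on 8 separate sites. LIPT2 and FRMPD2 were named in the study's text for their mRNA levels, which is a different measure from a ChIP-seq peak. Because the study picked at least some of the genes from these same samples, a peak at one of them is not independent evidence that the protein favours such genes.

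The cells were LNCaP, an androgen-responsive human prostate cancer line. In 4 derived lines, made by lentiviral infection and puromycin selection, a doxycycline-regulated EHMT1 with a V5 tag was expressed as the wild-type protein (WT), with an arginine in place of 1 of a pair of adjacent lysines (K450R, K451R), or of both (K450RK451R). These lines received 0.5 µg/ml doxycycline for 2 days and were precipitated with anti-V5 or with anti-H3K9me2, which recognises the dimethyl mark on lysine 9 of histone H3. In parental LNCaP cells, for which no doxycycline treatment is listed, the cells' own EHMT1 was precipitated instead. The labels give 18 samples in 9 groups of 2 replicates, but 1 peak list per group, so no value below carries a replicate error and no test between groups was possible.

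EHMT1, also called GLP, is a SET-domain enzyme and the close relative of G9a (EHMT2). H3K9me2, the product of these enzymes, is a mark of silent genes in euchromatin. Among the factors linked to EHMT1 is the repressor REST, which binds a long DNA element named RE1 and keeps neuronal genes silent in non-neuronal cells. E2F1 and MYC, activators of genes for cell division, bind much shorter strings. The 5 genes have unrelated functions. PPP1R14C encodes an inhibitor of protein phosphatase 1, HTR5A a serotonin receptor of neurons, STXBP3 a Sec1/Munc18 protein that controls membrane fusion through syntaxins, LIPT2 a mitochondrial enzyme that transfers the octanoyl group needed to make lipoate, and FRMPD2 a scaffold protein with FERM and PDZ domains.

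The sequences under the V5 peaks of the K450RK451R line that lay in a gene or near its start are shown first, because they divide these sites into unlike kinds. All are the plus strand of hg19, 5′ to 3′. The peak just upstream of HTR5A is given whole, and capitals mark 3 matches to the RE1 element with at most 2 mismatches over 17 bases.
HTR5A promoter, chr7:154861767-154862022: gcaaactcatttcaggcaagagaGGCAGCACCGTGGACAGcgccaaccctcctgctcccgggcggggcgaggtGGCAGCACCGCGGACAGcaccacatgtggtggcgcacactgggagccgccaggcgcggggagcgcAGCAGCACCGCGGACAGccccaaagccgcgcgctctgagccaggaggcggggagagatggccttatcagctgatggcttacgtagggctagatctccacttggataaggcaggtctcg

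The 2 peaks in PPP1R14C follow, the first whole and the second as its first 300 bases. Capitals mark a 12-base string that recurs every 48 bases.
PPP1R14C higher peak, chr6:150518778-150518994: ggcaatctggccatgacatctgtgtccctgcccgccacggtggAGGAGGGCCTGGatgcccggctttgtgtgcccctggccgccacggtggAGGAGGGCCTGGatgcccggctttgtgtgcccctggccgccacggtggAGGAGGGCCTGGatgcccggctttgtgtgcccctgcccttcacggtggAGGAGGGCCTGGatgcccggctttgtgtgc
PPP1R14C lower peak, chr6:150519185-150519484: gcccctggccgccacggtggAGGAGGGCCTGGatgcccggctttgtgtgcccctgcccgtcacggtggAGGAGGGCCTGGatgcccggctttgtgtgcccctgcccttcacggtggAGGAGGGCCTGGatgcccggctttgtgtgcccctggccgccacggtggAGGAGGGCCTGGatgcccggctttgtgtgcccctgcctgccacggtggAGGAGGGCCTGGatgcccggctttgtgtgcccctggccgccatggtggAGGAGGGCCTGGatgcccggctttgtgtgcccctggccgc

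The peaks at the starts of STXBP3 and LIPT2 are also shown. They hold none of the E2F, MYC or RE1 strings searched for, which does not set them apart. Each of these was found in at most 4.52% of the 201-bp windows at K450RK451R summits. LIPT2 is transcribed from the other strand.
STXBP3 promoter, chr1:109289094-109289214: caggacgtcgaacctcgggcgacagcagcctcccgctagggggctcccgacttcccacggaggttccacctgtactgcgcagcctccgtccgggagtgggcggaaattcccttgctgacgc
LIPT2 exon 1, chr11:74204501-74204660: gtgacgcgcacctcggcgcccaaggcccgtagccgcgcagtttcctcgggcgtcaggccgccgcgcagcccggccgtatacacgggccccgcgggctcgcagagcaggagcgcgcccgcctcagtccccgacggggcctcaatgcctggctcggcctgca

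Of the 11 peaks, 8 came from the K450RK451R V5 list, 2 from the endogenous EHMT1 list and 1 from the K450R V5 list. Every one of the 5 genes had a K450RK451R peak in this window, but so had 48.0% of all coding genes. An EHMT1 peak was found at PPP1R14C and HTR5A, against 5.54% of coding genes. The single K450R peak was at HTR5A, where the share of coding genes with such a peak was 0.858%. The WT and K451R lists had no peak at any of the 5 genes, and the shares over coding genes were 0.843% and 1.32%. None of the 4 H3K9me2 lists had a peak there either, where 2.94% of coding genes had one in at least 1 of these lists. The closest H3K9me2 peak lay 264 kb from HTR5A, and at the other 4 genes the distance was at least 2452 kb. The H3K9me2 lists rest on an estimated 8.79 M to 27.6 M reads (M, mega) and hold narrow peaks, so that a broad, low level of the mark need not appear in them.

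HTR5A, STXBP3 and LIPT2 each had a K450RK451R peak with its summit no more than 1 kb from the gene's start, as had 785 coding genes, or 3.89%. An EHMT1 summit so close to the start was seen for 0.382% of coding genes and a K450R summit for 0.0298%, that is 77 and 6 genes. HTR5A was in both sets. It was also 1 of the 40 genes (0.198%) with a K450RK451R and an EHMT1 summit within 1 kb of the start. PPP1R14C and FRMPD2 had no peak near their starts.

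**Figure D1:**
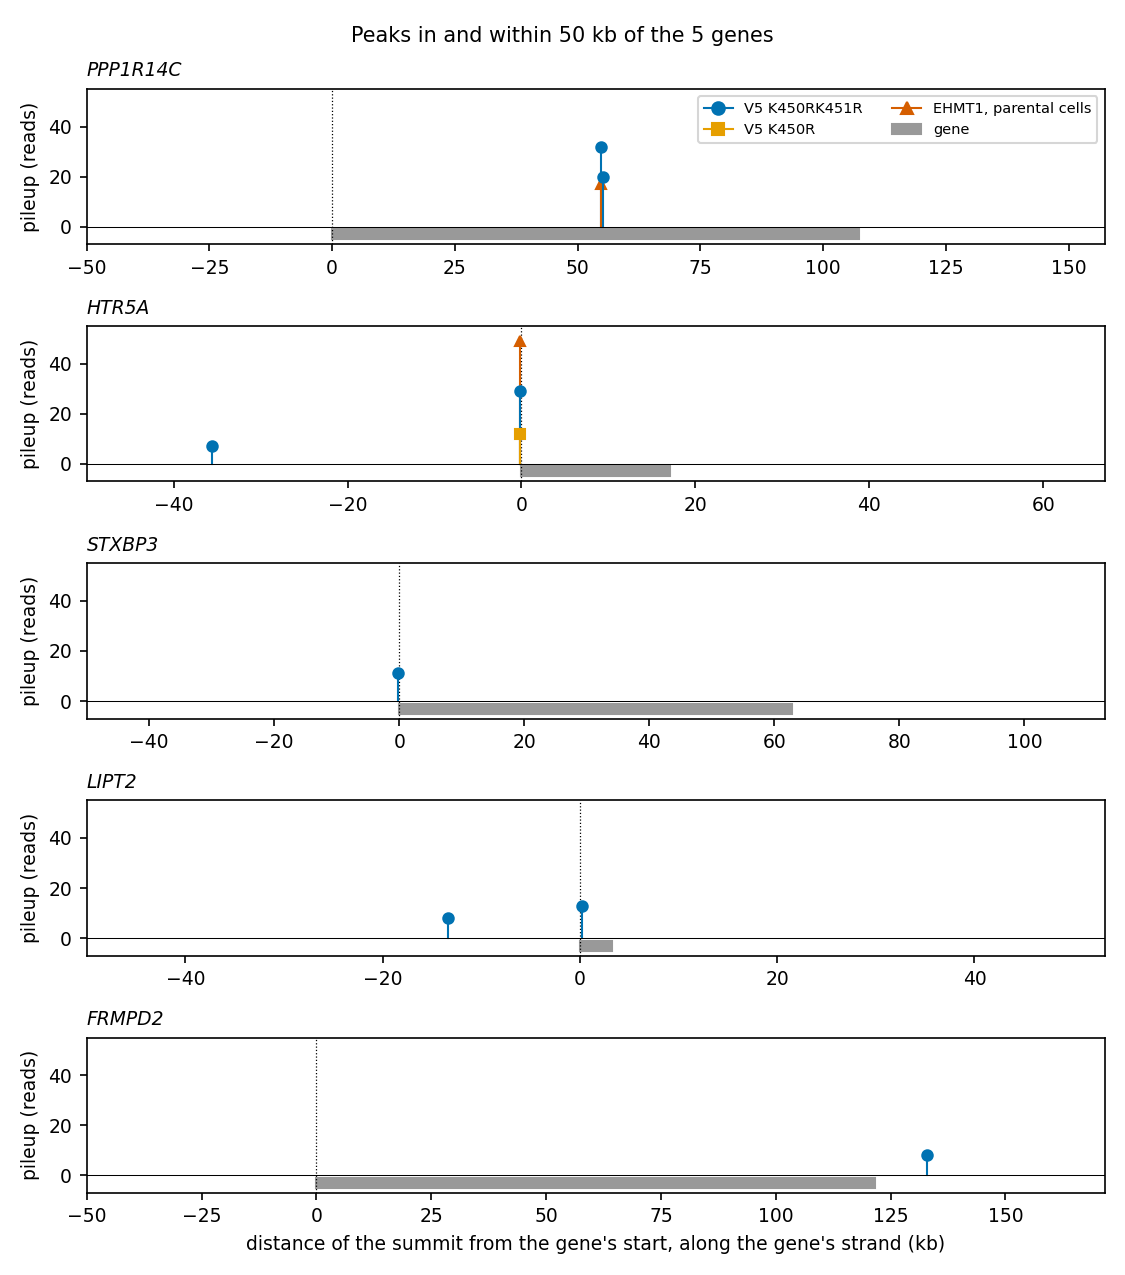
Each panel shows 1 gene as a grey bar and the peak summits in and within 50 kb of it, placed by their distance from the gene's start in kb. The height is the pileup in reads at the summit, and colours and symbols give the list. Only HTR5A and PPP1R14C carry peaks of more than 1 list, and the sites at STXBP3, LIPT2 and FRMPD2 reach a pileup of at most 13.

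The HTR5A promoter was the site with peaks in the most lists. HTR5A (ENSG00000157219.5_11) is on the plus strand of chromosome 7 at 154862034 to 154879102, and its start lies inside HTR5A-AS1, a long non-coding RNA transcribed from the opposite strand. The K450RK451R peak had a summit 141 bp upstream of the start and a fold enrichment of 13.4, the ratio of the reads at the summit to the local background with 1 added to each. Its −log10 q was 25.1, the 299th highest of 14799. The EHMT1 peak, at 154861698 to 154862016, had its summit 220 bp upstream with a fold of 16.7 and a −log10 q of 45.0. The K450R peak, at 154861768 to 154861940, had a summit 172 bp upstream, a fold of 8.23 and a −log10 q of 8.35. By −log10 q the K450R peak ranked only 529th of the 637 peaks of its list, and the EHMT1 peak 130th of 1748. Of the K450R list, 57.5% had a lower fold. All 3 peaks thus overlapped, and their summits lay within 79 bp of each other.

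Read numbers behind these calls were recovered from the deposited values. The pileup, which is the number of extended reads over the summit, was 49 for EHMT1 (95% interval 36.3 to 64.8), 29 for K450RK451R (19.4 to 41.6) and 12 for K450R (6.20 to 21.0). These intervals, like the others below, are exact Poisson intervals and cover counting error only. Per 10 M reads of each list the pileups were 18.3, 12.8 and 10.8. With the K450RK451R reads scaled to the depth of the K450R list, a pileup of 14.2 (9.50 to 20.4) would be expected at the promoter, and the 12 observed lay inside that interval. Among the 731 K450RK451R peaks with a summit within 1 kb of a coding gene's start, the HTR5A peak ranked 5th by −log10 q, and 99.7% of them had a lower fold. In the EHMT1 list it ranked 2nd of 74 such peaks and in the K450R list 3rd of 6.

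The 3 RE1 matches in the HTR5A sequence above all lay on the plus strand and each differed from the consensus at 1 base. They ended 228, 178 and 113 bp upstream of the start, spaced by 50 and 65 bp, and together spanned 132 bp. The EHMT1 summit fell between the first pair of matches and the K450RK451R and K450R summits between the last pair. In the 201-bp window centred on the K450R summit all 3 matches were complete, as in 3 of the 637 windows of that list (0.471%). The windows centred on the K450RK451R and EHMT1 summits held 2 complete matches each. In those lists 3 or more matches were held by 0.101% and 0.744% of the windows, and the HTR5A windows are not among these. The share with 2 or more matches was not computed. At least 1 match was present in 4.52% of the K450RK451R windows, 2.51% of the K450R windows, 28.5% of the EHMT1 windows and 8.47% of windows centred on the starts of coding genes. A match is a description of letters and does not show that REST was bound. Every 51-base stretch of this promoter peak, the length of the reads, occurred once in the genome.

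**Figure D2:**
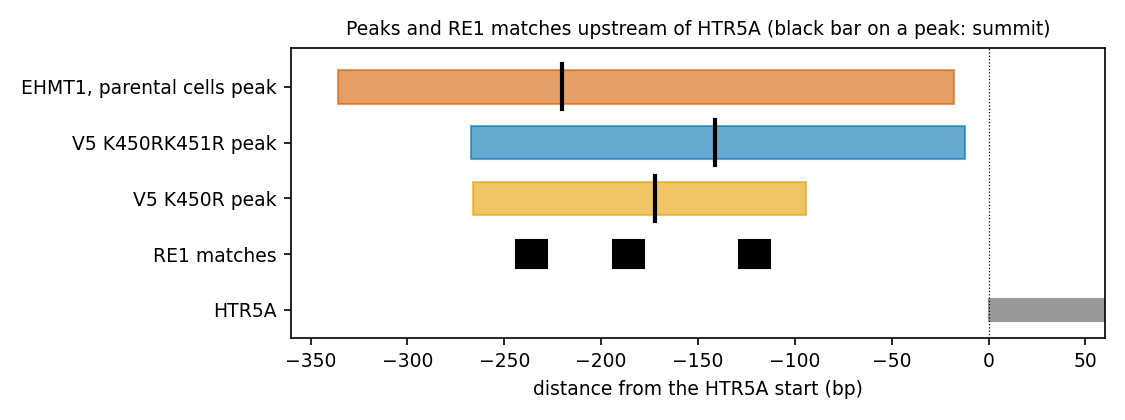
The 3 peaks upstream of HTR5A are drawn by distance from the gene's start in bp, with a black bar at each summit, and the black boxes below are the RE1 matches. All 3 peaks cover all 3 matches, and the summits lie 141 to 220 bp upstream.

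A second K450RK451R peak at HTR5A lay 35559 bp upstream of the start, in no annotated gene. It was among the weakest of its list, with a fold of 3.98, a −log10 q of 1.83 (rank 14253) and a pileup of 7 (2.81 to 14.4). The nearest coding start was that of PAXIP1, 31641 bp from the summit, so HTR5A was not the closest gene. The window around it resembled 2136 other places in the genome at 80% identity or more over at least 80% of its length, and its commonest 51-base stretch occurred 116 times.

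The peaks at PPP1R14C were of another kind. PPP1R14C (ENSG00000198729.5_6) spans 107 kb of chromosome 6, from 150464180 to 150571528 on the plus strand, and both K450RK451R peaks lay in its first intron, 54726 and 55100 bp past the start. The higher one had a fold of 10.2, a −log10 q of 21.3 (rank 387) and a pileup of 32 (21.9 to 45.2). The lower one, at 150519185 to 150519492, had a fold of 6.50, a −log10 q of 8.85 (rank 1057) and a pileup of 20 (12.2 to 30.9). An EHMT1 peak at 150518823 to 150518937 lay wholly within the higher one, with summits 14 bp apart. It had a fold of 6.08, a −log10 q of 7.03 and a pileup of 17 (9.90 to 27.2), and only 37.0% of the EHMT1 list had a lower fold. The pileup per 10 M reads was 14.1 in the K450RK451R list and 6.34 in the EHMT1 list, the reverse of the order at HTR5A, with different antibodies and cells. A K450RK451R peak that overlapped an EHMT1 peak and no peak of the other V5 lists was found 295 times, or for 1.99% of the list.

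All 3 summits in PPP1R14C fell within 1 tandem repeat, at 150518786 to 150519536. It is 751 bp long, has 15.6 copies of a unit of 48 bp and a GC content of 70.3%. The string AGGAGGGCCTGG, capitalised above, occurred 15 times in it, every time 48 bp after the previous one. Around the summit of the lower peak, 94.6% of the bases were the same as those 48 bp further on, and 96.9% the same as those 144 bp further on. A window with at least 80% identity to itself at some shift between 10 and 150 bases was present at 2.70% of the K450RK451R peaks and 5.15% of the EHMT1 peaks. The lower peak met this limit. The window of the higher peak, which reaches past the edge of the array, came to 76.2% and that of the EHMT1 peak to 73.4%, both below it. The gap of 190 bp between the 2 peaks also lies in the array.

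Most 51-base stretches of these peaks, the length of the reads, occurred more than once in the genome. Of the 51-base stretches in the higher peak 22.8% occurred once in the genome, in the lower peak 37.6% and in the EHMT1 peak 4.62%, with at most 5 copies of any stretch. No window more than 1 kb away resembled any of the 3 summit windows at 80% identity over 80% of the length. How reads with several positions were treated is not given in the sources used here, and the local background was 2.68 times the genome-wide value at the higher peak and 2.65 times at the lower one. The share of these reads in the peak heights was not tested.

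PPP1R14C is treated by the study as an E2F1 target, with evidence that includes E2F1 silencing, which a string search does not address. Whether its V5 sites hold an E2F string is a separate question. The strings TTTCCCGC, TTTCGCGC, TTTGCCGC and TTTGGCGC were searched on both strands. None occurred in the array, nor did the MYC string CACGTG or an RE1 match. Of the 201-bp windows at K450RK451R summits, 0.487% held an E2F string, 1.89% the MYC string and 4.52% an RE1 match. These strings are thus rare in such windows. The array, at 751 bp, is longer, and no share at that length was computed, so their absence is not shown to set it apart. An E2F string lay 169 bp upstream of the PPP1R14C start, far from the peaks. The 2001-bp windows around the starts of 14.2% of coding genes held one. The start regions of the other 4 genes held none. At this scale an absent string says only that these letters are not in the window.

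**Figure D3:**
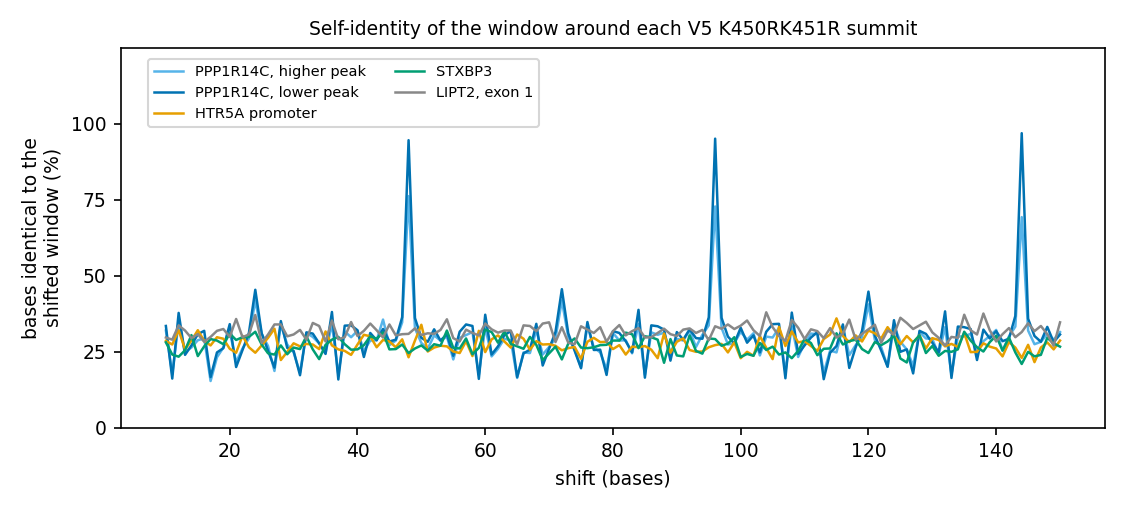
The percent of bases that match when the 401-bp window around a V5 K450RK451R summit is shifted along itself is plotted against the shift in bases. Both PPP1R14C windows peak at 48, 96 and 144 bases, up to 96.9% for the lower peak and 76.2% for the higher one, while the windows at HTR5A, STXBP3 and LIPT2 reach at most 38.0%.

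At STXBP3, the site was a single small peak at the promoter. STXBP3 (ENSG00000116266.11_6) is on the plus strand of chromosome 1 at 109289296 to 109352145, and the K450RK451R peak at 109289094 to 109289214 had its summit 155 bp upstream of the start. Its fold was 5.45, its −log10 q 4.14 (rank 4153) and its pileup 11 (5.49 to 19.7). It ranked 143rd of the 731 peaks near a start, where the median pileup was 9. The nearest EHMT1 peak was 732 kb away. The sequence was unique in the genome, had a GC content of 67.8% and held 12 CpG dinucleotides. No start of another coding gene lay within 33611 bp, the distance to FNDC7.

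The LIPT2 site cannot be given to LIPT2 alone. LIPT2 (ENSG00000175536.7_11) occupies only 3.21 kb of the minus strand of chromosome 11, 74201564 to 74204769, and the start of POLD3, a subunit of DNA polymerase delta, lies 127 bp away on the other strand. The summit fell 187 bp inside LIPT2, in the coding part of exon 1, and 314 bp from the POLD3 start. It also lay in LIPT2-AS1, a non-coding RNA of the plus strand. The fold was 6.57, the −log10 q 6.33 (rank 1652) and the pileup 13 (6.92 to 22.2). By −log10 q it was the 35th of the 731 peaks near a start. The sequence was unique, with a GC content of 76.2% and 24 CpG dinucleotides in 160 bp. A second K450RK451R peak, at 74218058 to 74218213 within POLD3 and 13380 bp upstream of LIPT2, had a fold of 4.69, a −log10 q of 2.67 and a pileup of 8 (3.45 to 15.8). It was unique in the genome too but held no CpG.

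**Figure D4:**
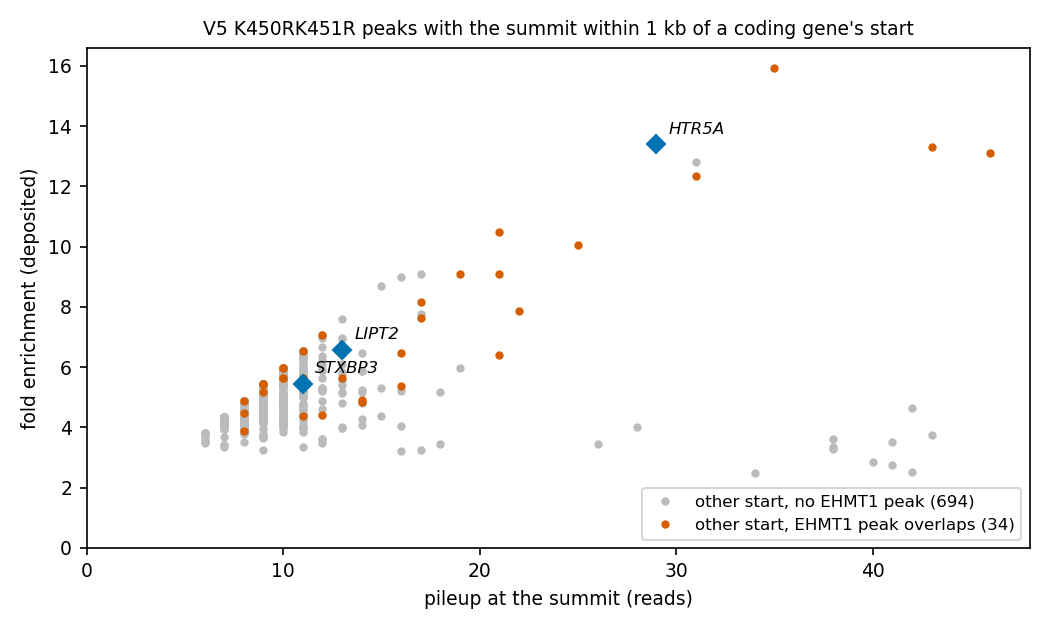
Fold enrichment is plotted against the pileup (reads) for the 731 V5 K450RK451R peaks with the summit within 1 kb of a coding gene's start. HTR5A, LIPT2 and STXBP3 are blue diamonds. The other peaks are orange where they overlap an EHMT1 peak and grey elsewhere. With HTR5A included, 35 of the 731 overlap an EHMT1 peak. HTR5A, with a pileup of 29 and a fold of 13.4, is high on both axes, while LIPT2 and STXBP3 have pileups of 13 and 11 beside a median of 9.

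FRMPD2 had no peak of any list inside the gene or near its start. FRMPD2 (ENSG00000170324.21_13) covers 122 kb of chromosome 10, from 49361131 to 49482739 on the minus strand, and the summit nearest to its start was 59.3 kb away, outside the window. The only peak within 50 kb lay 11268 bp beyond its 3′ end. It had a fold of 4.55, a −log10 q of 2.49 (rank 11313) and a pileup of 8 (3.45 to 15.8). The peak is Alu-like, since 67 bases of its window aligned with the 7SL RNA, from which Alu elements descend, at 82.1% identity. Such windows made up 43.4% of the K450RK451R list and 0.801% of the EHMT1 list. None of the 51-base stretches of the peak was unique. Paralogous copies of parts of FRMPD2 are known, and 81.0% of the 51-base stretches of the gene were unique, compared with 94.9% to 98.3% in the other 4 genes. Reads at the duplicated stretches could not be assigned to this gene alone.

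The V5 lists address whether the sites were occupied only when both lysines were replaced, but the lists differ in depth. The reads behind them, estimated from the genome-wide background, came to 22.7 M in the K450RK451R list but only to 14.1 M in K451R, 11.1 M in K450R and 8.84 M in WT. For each of the 8 sites, the K450RK451R pileup was therefore scaled to each of the other 3 lists and compared with the pileup that this list would have needed for a call. In 5 of the 24 pairs the whole interval reached the needed pileup, and 1 of these 5, HTR5A in K450R, was called. The intervals carry the counting error of the K450RK451R pileup alone and leave out that of the shallower list. A missing call in the other 4 of these 5 pairs therefore does not by itself show an absence. At HTR5A a pileup of 11.3 (7.57 to 16.2) was expected in WT and 18.1 (12.1 to 26.0) in K451R, where 7 was needed in either list, and neither had a peak. At the higher PPP1R14C peak the expectation was 15.7 (10.7 to 22.1) in K450R and 19.9 (13.6 to 28.1) in K451R against 9 needed, also without a call, while in WT the interval of 8.53 to 17.6 held the 9 needed.

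At the other sites a call could be missed more easily still at these depths. The lower PPP1R14C peak had expected pileups of 7.80 to 12.5 in the 3 lists, where 9 was needed. For LIPT2 exon 1 the range was 5.07 to 8.10 and for STXBP3 4.29 to 6.85, where 7 was needed, and in both cases every interval held the needed pileup. Expected pileups at the 3 flank sites were 2.73 to 4.98. An occupancy equal to that in the K450RK451R line was thus not detectable with confidence there, and the lack of a WT, K450R or K451R peak at STXBP3, LIPT2 and FRMPD2 does not show a difference between the lines. The comparison assumes equal enrichment per read in all V5 lists. It also takes summits that were called because they were high, so that the expected pileups tend to be too large.

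**Figure D5:**
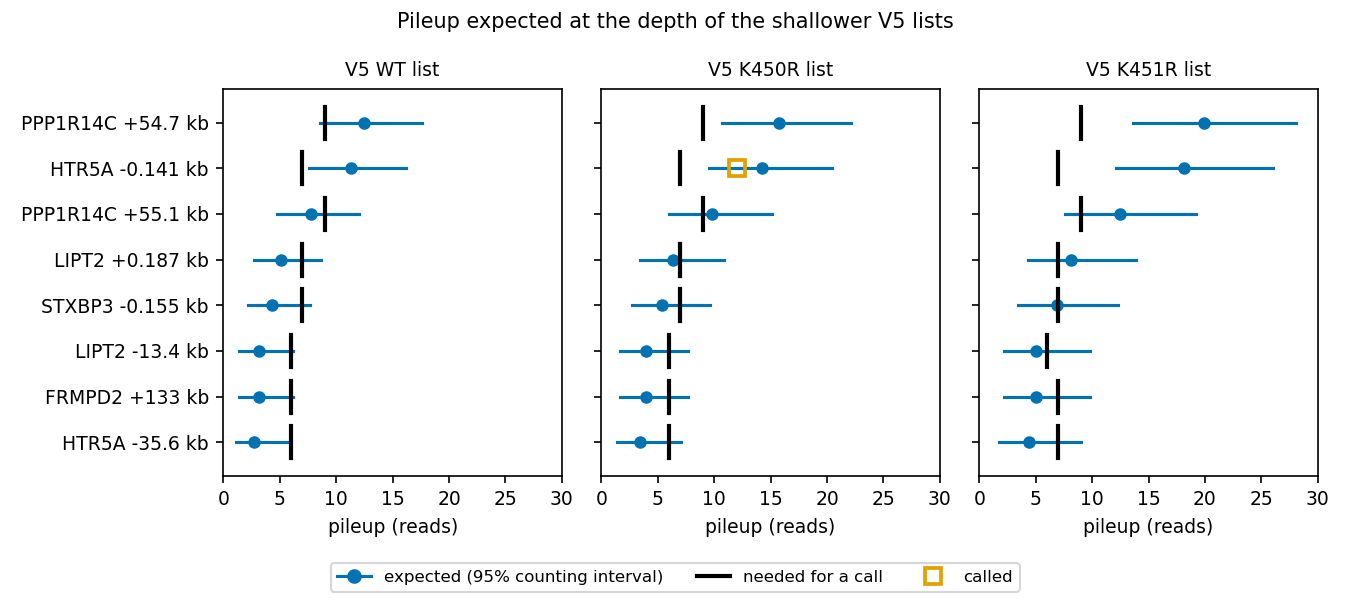
Sites are named by gene and distance of the summit from the start. The dot gives the pileup expected in the WT, K450R or K451R V5 list. The line gives the 95% counting interval of the K450RK451R pileup, scaled alike, and the black bar gives the pileup needed for a call. Only the HTR5A promoter in all 3 lists and the higher PPP1R14C peak in K450R and K451R have intervals wholly to the right of the bar, and the open square marks the single call, HTR5A in K450R.

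Relatives of the 5 genes were examined in the same way. Of the 17 serotonin receptor genes, 11 had a K450RK451R peak in the gene or within 50 kb, and 2, HTR5A and HTR7, had a summit within 1 kb of the start. The HTR7 peak lay 587 bp past the start with a fold of 5.32 and a pileup of 9, against 29 at HTR5A. EHMT1 peaks occurred at 6 of the 17 receptors, but HTR3C, HTR3D and HTR3E share a single one, as do HTR3A and HTR3B, and HTR5A alone had one within 1 kb of the start. Among 12 Sec1/Munc18 and syntaxin-binding genes, 7 had a K450RK451R peak, and for STXBP3, STXBP4, STXBP6 and VPS33A it was near the start, with pileups of 11, 7, 11 and 10.

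Of 9 genes of protein lipoylation, 7 had a K450RK451R peak, with LIPT2 and GCSH near the start. The GCSH peak, in the gene for the lipoate-carrying protein of glycine cleavage, had a fold of 3.80 and a pileup of 8. In the PPP1R14 family of phosphatase inhibitors PPP1R14C was the only one of 4 with a peak, and of 5 FERM and PDZ genes 4 had one, none near a start. No syntaxin-binding, lipoylation or FERM and PDZ gene had an EHMT1 peak, and no H3K9me2 peak fell at any gene of these 5 families. Over all coding genes, the shares with a peak in this window were 48.0% for K450RK451R, 5.54% for EHMT1 and 2.94% for any H3K9me2 list, and the shares with a summit near the start were 3.89% for K450RK451R and 0.382% for EHMT1. With so few genes in each family, a count of 0 for EHMT1 or H3K9me2 does not set a family apart.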

How the data were processed

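ChIP-seq reads (51 nt, single-end) were processed by the authors. Per the labels, FastQC 0.11.9, BWA 0.7.9a, SAMtools 1.2 and MACS2 2.1.0 were used on hg19. The authors deposited 1 peak list per group, with a fold ratio, −log10 p and −log10 q per peak and a summit position within each peak. Whether the 2 replicates were pooled is not given in the sources used here. No input or control library is among the 18 samples, and what the local background was drawn from is not given either. All peak values were used as deposited, and no column held values of other samples.

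The 5 genes and all lists of relatives and strings were chosen with earlier results of these data known. Genes, exons and transcript starts came from GENCODE 44 on the same build. Peaks in a gene or within 50 kb of it were taken, and peaks sharing 1 bp were joined into a site. Values are given in full for peaks in a gene, within 1 kb of its start or overlapping another list, and the other flank peaks, at most 2 per gene, are also named. Pileup and background were solved from the fold and −log10 p, as MACS2 computes them, for all 22458 peaks. Reads were estimated as the background times 2.7 Gb over an extension of 100 bp, an extension inferred from the values. The pileup needed was the smallest that reached a list's lowest −log10 p at the scaled background. Strings, 51-base stretches and similarity to 7SL (blastn 2.17.0, e-value 1e-10) were computed on the hg19 genome. The solver and the counts of 51-base stretches were tested on simulated data. Python 3.11.15, numpy 2.4.6, scipy 1.17.1 and numba 0.67.0 were used. No test was made, since each group had 1 list. The sequences of the peaks outside the genes and away from their starts are not reported here.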

Additional observations from a re-analysis of the deposited data

How the results depend on the processing

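No paired analysis was possible because the 2 replicates of a group came with a single list, and leaving out a replicate was not run for the same reason. The K450RK451R peaks at the 5 genes numbered 8 as deposited, 4 where the −log10 q reached 5, and 5 each at a fold of at least 5, with 1 p cutoff for all lists (−log10 p of 6.57) and with a flank of 10 kb. Without 7SL-like peaks 7 were left, and a flank of 100 kb gave 12. Sites with a K450RK451R peak and no other V5 peak numbered 7 as deposited, 3 at that q, and 4 each at that fold and at the common p cutoff. Over the whole K450RK451R list as deposited, 94.3% of the peaks overlapped no peak of another V5 list, so this trait does not set the 5 genes apart. The peaks lost at the fold and p cutoffs were the 3 flank peaks at HTR5A, LIPT2 and FRMPD2, so FRMPD2 then had none. At the q cutoff STXBP3 was lost too. The number of genes with a K450RK451R summit near the start (3, or 2 at the q cutoff), the 2 EHMT1 peaks and the absence of H3K9me2 peaks moved by no more than 1.5 times under the alternatives run, which for H3K9me2 included a flank of 100 kb. Depth limits the small sites most, at pileups of 7 to 13.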
